A study of Mus musculus with 5 samples.

Results

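The genes described here are Pthlh, which encodes the secreted peptide PTHrP (parathyroid hormone-related protein), and Pth1r, which encodes its receptor. They are 2 of the 19699 entries of a gene table from mouse embryonic airway and were taken by symbol. The mutant and control values of these libraries were known when the pair was chosen, so their levels and differences are given as a description, with no test. The study measured bulk RNA of the main lung airway section, with trachea and lung, at embryonic stage E13.5. The 2 mutant samples carried a loss of Prmt5, an arginine methyltransferase, in the lung epithelium of C57 mice, and the 3 control samples were littermates labelled WT. The mutants are labelled a Prmt5 knockdown, while the protocol text speaks of an epithelial knockout and the design text names Shh together with Prmt5. No label names a Cre allele or says how many embryos went into a sample, so the spread between samples may be technical in part.

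PTHrP acts on neighbouring cells. In the lung it is made by epithelium and its receptor lies mostly on mesenchyme. PTH1R couples to Gs, which raises cAMP and activates protein kinase A, and to Gq, which activates phospholipase C. In the growth plate PTHrP and Indian hedgehog form a feedback loop that holds chondrocytes in an immature state, in the mammary bud PTHrP patterns the mesenchyme, and in the late fetal lung it promotes lipid-storing fibroblasts.

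Pthlh lies on chromosome 6 at 147252101 to 147264183, minus strand (GRCm38), with 1619 exonic bases. Pth1r lies on chromosome 9 at 110722085 to 110747145, minus strand, with 2925 exonic bases. The promoter windows of both genes are shown because they are the regulatory sequence nearest the 2 RNAs compared. Each runs from 250 bases before to 50 bases after a RefSeq gene start (GRCm38.p6) and is written 5′ to 3′ on the minus strand, with matches to the GC box GGGCGG on either strand in capitals. RefSeq gives 1 start for Pthlh and 3 for Pth1r, of which the window with the most GC boxes is printed.
Pthlh, chr6:147263964-147264263: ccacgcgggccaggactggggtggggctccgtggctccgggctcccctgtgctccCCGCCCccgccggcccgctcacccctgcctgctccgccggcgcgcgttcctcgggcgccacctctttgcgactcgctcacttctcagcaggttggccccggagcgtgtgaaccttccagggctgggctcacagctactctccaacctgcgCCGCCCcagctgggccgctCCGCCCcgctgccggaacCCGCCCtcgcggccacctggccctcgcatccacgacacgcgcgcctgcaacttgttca
Pth1r, chr9:110742561-110742860: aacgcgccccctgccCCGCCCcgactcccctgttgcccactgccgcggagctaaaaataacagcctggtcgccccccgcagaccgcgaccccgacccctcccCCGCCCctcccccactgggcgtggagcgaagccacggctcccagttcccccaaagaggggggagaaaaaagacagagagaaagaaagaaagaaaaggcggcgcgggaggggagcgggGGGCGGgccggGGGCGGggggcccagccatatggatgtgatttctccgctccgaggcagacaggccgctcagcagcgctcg
The Pthlh window held 4 GC boxes, as did the printed Pth1r window, while the other Pth1r windows held 0 and 1. At least 1 GC box was in 35.7% of 32851 windows of this length. The Pthlh window was 74.0% G and C, against a median of 52.7% over all windows, and held 33 CpG dinucleotides. The 4-base ETS core GGAA was found 3 times in the Pthlh window, but 96.0% of all windows hold it. Neither the full cAMP response element TGACGTCA, found in 1.79% of windows, nor the GLI site GACCACCCA, found in 0.253%, had a match on either strand in any of the 4 windows. These are matches of letters and show no binding.

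The libraries held 15652503 to 18682463 reads, recovered from the steps between values in FPKM, a level scaled by exon length and library size. Lung identity was present throughout, with Nkx2-1, the lung lineage factor, at 20.4 to 43.1 FPKM. The labels' treatment text, which describes turning cultured cells into fat cells, is the same for all 5 samples and does not match embryonic tissue. The targeted gene, Prmt5, had 23.7 and 20.1 FPKM in the mutants against 28.7, 26.4 and 25.8 FPKM in the controls (log2 difference -0.29, limma adjusted p = 0.234).  Shh, the epithelial signal that the design text names, was at 2.47 and 3.14 FPKM in the mutants against 5.88 to 10.5 FPKM in the controls (limma adjusted p = 0.0416). Xist, which female cells make from their silenced X, was at 0.0673 and 0.289 FPKM in the mutants against 57.3 to 115 FPKM in the controls. The Y-linked gene Ddx3y was at 10.8 FPKM or more in both mutants, against 9.91, 6.70 and 2.54 FPKM in the controls. Every control thus held both Xist and Ddx3y RNA and cannot be read as tissue of a single sex. Whether more than 1 embryo went into a control was not tested. Sex and genotype cannot be told apart in these libraries. Of 12838 genes tested, 303 passed an adjusted p of 0.05, 127 higher and 176 lower in the mutants, and median ratio scaling gave 151 and 140.

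Pthlh, the ligand, was at 13.3 and 11.7 FPKM in mutant replicates 1 and 2. In control replicates 1, 2 and 3 it was at 3.17, 2.84 and 1.66 FPKM. Both mutants lay far above all controls, and control replicate 3 was the lowest. These values rest on 340 and 297 reads in the mutants and on 96, 75 and 49 reads in the controls. The exact Poisson 95% interval of the lowest mutant, 10.4 to 13.1 FPKM, did not reach that of the highest control, 2.57 to 3.88 FPKM, and the intervals cover counting error only. The mutant mean was 12.5 ± 1.14 FPKM (SD, n = 2) and the control mean 2.56 ± 0.795 FPKM (SD, n = 3), 4.89-fold higher in the mutants. As log2(FPKM + 1), a scale that makes changes of low genes look smaller, the difference was 1.95 (SE 0.20), rank 11 of the 12838 genes tested. In level per length, Pthlh stood above 18.5% of the genes tested in the controls and above 65.1% in the mutants. The Y-linked gene Ddx3y ranked the 5 libraries in the same order as Pthlh, the controls included. The part of sex in the level of Pthlh was not tested.

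Pth1r, the receptor, was at 27.0 and 22.4 FPKM in mutant replicates 1 and 2. In control replicates 1, 2 and 3 it was at 13.9, 22.3 and 23.1 FPKM. The groups overlapped, since mutant replicate 2 lay below control replicate 3, and control replicate 1 stood below the other libraries. Read counts were 1243 and 1026 in the mutants and 759, 1062 and 1231 in the controls. The mutant mean was 24.7 ± 3.22 FPKM (SD, n = 2) and the control mean 19.8 ± 5.09 FPKM (SD, n = 3), 1.25-fold apart. The log2 difference was 0.33 (SE 0.22), within the spread of the controls, and it was 0.11 without control replicate 1. It turned to -0.22 after conversion to TPM, which moved the median of all genes from -0.06 to -0.59. Conversion to TPM without Gm23935, a single entry at 25156 to 588384 FPKM, gave 0.28 and a median of -0.13. With the epithelial level as a covariate the difference was -0.023. The overlap of Pth1r with Myl3, a myosin light chain gene on the other strand, covers 95 of its 2925 exonic bases. Myl3 had 23 reads over the 2 mutants and 68 over the 3 controls, so few reads could be shared.

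Groups that did not overlap, with the mutants above, were thus seen for 1 of the 2 genes. The same held for 13.2% of all genes tested, and since the pair was chosen on this contrast nothing is read from its count. The receptor RNA exceeded the ligand RNA per length in every library. The ratio of Pthlh to Pth1r was 0.494 and 0.523 in the mutants and 0.229, 0.128 and 0.0719 in the controls.

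**Figure D1:**
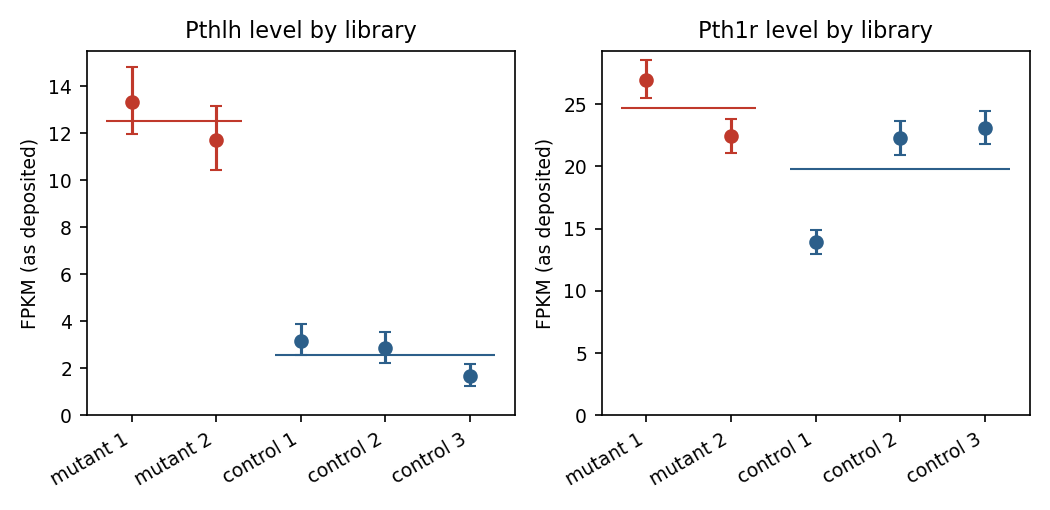
FPKM of Pthlh (left) and Pth1r (right) in each of the 2 mutant (red) and 3 control (blue) libraries, with exact Poisson 95% intervals of the reads as bars and group means as lines. Both mutants lie above all controls for Pthlh, at 13.3 and 11.7 FPKM against 1.66 to 3.17 FPKM, while the groups overlap for Pth1r.

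In bulk tissue, fewer cells of a type and less RNA per cell cannot be told apart, so both genes were also set against markers of the cells that make them. None of the 16 pan-epithelial markers passed as higher in the mutants. Their summed level was 344 and 345 FPKM in the mutants against 328 to 847 FPKM in the controls, with control replicate 1 the highest. Their geometric mean, which weighs low and high markers alike, was 12.1 and 11.9 FPKM in the mutants against 33.5, 16.6 and 13.7 FPKM in the controls, so the groups overlapped in the sum and not in the geometric mean. Of the 16, 10 had both mutants below all controls (62.5%, against 24.4% of all genes tested) and 7 were lower at an unadjusted p under 0.05. With limma 1 passed and was lower, Foxa1, a forkhead factor of foregut epithelium, at a log2 difference of -1.43 (limma adjusted p = 0.0419). Of all genes, 1.37% passed as lower. Divided by the geometric mean of the 16 markers, Pthlh was 1.10 and 0.985 in the mutants and 0.0949, 0.172 and 0.121 in the controls. The groups did not overlap in this ratio, whose means were 8.07-fold apart. Over Nkx2-1 alone the ratio was 0.369 and 0.358 in the mutants and 0.0790, 0.0660 and 0.0815 in the controls. The control libraries lay closer together in that ratio than in Pthlh itself. Over the epithelial markers Epcam and Cdh1 alone, the means were 9.54-fold and 6.79-fold apart. The controls were at 0.0257, 0.0427 and 0.0323 over Epcam and at 0.0615, 0.115 and 0.0711 over Cdh1. Both sets were more spread than over Nkx2-1.

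Markers of the distal epithelial tips moved with Pthlh in part. Of 8 tip markers tested, 4 passed and all 4 were higher, where 0.989% of all genes passed as higher. They were Etv4 and Bmp4, a transcription factor and a growth factor of the tips, and Cldn18 and Napsa, genes of distal lung epithelium. Napsa was at 1.65 and 1.95 FPKM in the mutants against 0.322, 0.161 and 0.186 FPKM in the controls. It thus passed the filter of 1 FPKM only through the mutants, so its call is no independent support. Both mutants lay above all controls for 5 of the 8 (62.5%, against 13.2% of all genes tested). The tip marker Etv5 overlapped, at 51.2 and 61.6 FPKM in the mutants against 25.6, 58.8 and 16.2 FPKM in the controls. So did the tip marker Sftpc, at 34.4 and 46.7 FPKM against 18.9, 56.2 and 4.85 FPKM. Among the controls both were highest in replicate 2, unlike Pthlh. The summed level of the 8 was 353 and 376 FPKM in the mutants against 158 to 302 FPKM in the controls. Divided by the geometric mean of these 8 markers, a ratio added after the data were seen, Pthlh was 0.537 and 0.442 in the mutants and 0.322, 0.202 and 0.271 in the controls. The mutants still lay above all controls, by 1.85-fold in the means. Sox9, at 25.5 and 23.2 FPKM against 17.3, 26.4 and 19.1 FPKM, is in the tip, cartilage and growth plate lists. The 5 proximal airway markers went the other way, with a sum of 19.6 and 23.7 FPKM against 88.5 to 219 FPKM, and 2 of the 5, Sox2 and Aldh1a7, passed as lower, where 1.37% of all genes did. The part of the tip and airway shift in the level of Pthlh was not tested. Mesothelial markers summed to 106 and 133 FPKM in the mutants against 57.2 to 104 FPKM in the controls, with 0 of 5 past the threshold with limma, 0 with voom and 3 higher at an unadjusted p under 0.05. Krt19, a keratin gene that is also in the pan-epithelial list, held 93.3 FPKM of the sum in control replicate 1. Without it the 4 other genes summed to 63.5 and 92.6 FPKM in the mutants against 10.9 to 49.2 FPKM in the controls. Of thyroid markers, Tg, the thyroglobulin gene, was at 0.101 to 0.167 FPKM and Pax8 was listed at 0 in all libraries but control replicate 3. Mutant levels of Tshr, the thyrotropin receptor gene, were 1.15 and 0.996 FPKM, against 0.176 to 0.478 FPKM in the controls. Markers of tissue around the airway fell in part. Of those tested, 4 of 5 skeletal muscle, 1 of 6 smooth muscle and 2 of 5 nerve and neural crest markers passed as lower. Of all genes tested, 1.37% passed as lower. With voom the marker counts were 5, 3 and 2, where 358 of all 12838 genes passed as lower. Of the 6 smooth muscle markers, 5 had both mutants below all controls, where 24.4% of all genes tested did. Most of the skeletal muscle sum was Actc1, an actin gene that heart muscle also uses, and without it the 5 others summed to 9.69 and 16.4 FPKM in the mutants against 67.7 to 108 FPKM in the controls. Of the heart markers, the atrial myosin gene Myl7 had 98.2 and 286 FPKM in the mutants against 149, 147 and 623 FPKM in the controls, so mutant replicate 2 and control replicate 3 stood apart. The part of these tissues in the results was not tested.

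Pth1r was set against 12 markers of lung mesenchyme, of which 3 passed as higher, where 0.989% of all genes did. They were Fgf10, the mesenchymal signal that drives branching, Tbx4, a T-box factor, and Wnt2, a Wnt ligand. The summed level of the 12 was 1774 and 1473 FPKM in the mutants against 1699 to 2211 FPKM in the controls. Col1a1, Col1a2 and Col3a1, the fibrillar collagen genes, made up most of that sum. The geometric mean of the 12 ran the other way. It was 66.1 and 55.6 FPKM in the mutants against 37.7, 48.0 and 49.6 FPKM in the controls. Both mutants lay above all controls for 6 of the 12 (50%, against 13.2% of all genes tested). They lay below for 3 (25%, against 24.4%). Over that mean, Pth1r was 0.408 and 0.403 in the mutants and 0.368, 0.464 and 0.466 in the controls. The groups overlapped, and the 3 control values spanned both mutants. The sign of the difference depended on the marker, since Pth1r over Pdgfra differed by 0.66 and over Tbx4 by -0.70 on the log2 scale.

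**Figure D2:**
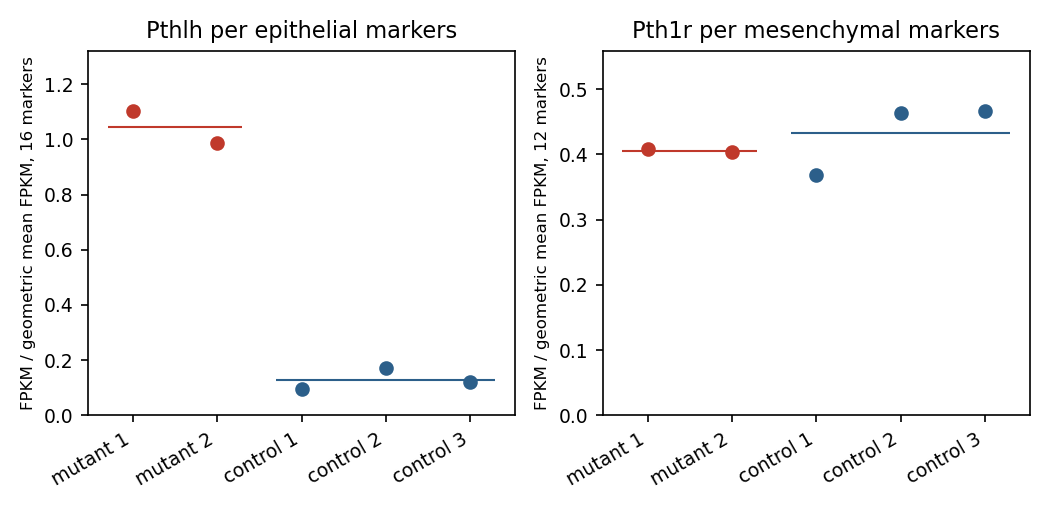
Ratio of the FPKM of Pthlh to the geometric mean FPKM of 16 pan-epithelial markers (left) and of Pth1r to that of 12 lung mesenchyme markers (right), per library, with group means as lines. Pthlh per epithelial level is 1.10 and 0.985 in the mutants (red) and at most 0.172 in the controls (blue), and Pth1r per mesenchymal level overlaps between groups.

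Other genes of PTHrP signalling were listed by role, 123 in 8 lists, and 97 of the 121 in the table passed the filter on low values. Of the 97, 2 passed as higher, Pcsk6 and Plin2, and 2 as lower, Col2a1 and Tnc, or 4.12% where 2.36% of all genes passed. Their median log2 difference was -0.07, against -0.06 for all genes tested. Groups did not overlap, with the mutants above for 14.4% and below for 26.8% of the 97, where all genes tested gave 13.2% and 24.4%. The call of all 4 ended without either mutant replicate, where the lone mutant is assumed to vary like the controls, and after conversion to TPM. All 4 kept it after conversion to TPM without Gm23935. With the Y-linked share of each library as a covariate, Col2a1 alone of the 4 kept its call. The log2 differences in that fit were 1.17 for Pcsk6, 0.62 for Plin2, -0.94 for Tnc and -1.89 for Col2a1.

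Among the ligands and receptors, none besides Pthlh and Pth1r passed the filter. Pth2, which encodes a related peptide, had 0 reads in the mutants, where a count of 0 allows up to 3 reads, and 5 in the controls. Pth2r, the receptor of that peptide, had 1 and 6 reads. Pth, the parathyroid hormone gene, was not analysed here.

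Of 6 partners of the receptor, 0 passed with limma and 0 with voom, a test run on the recovered reads, and 2 were higher at an unadjusted p under 0.05, which 18.9% of all genes reached in either direction. These were Slc9a3r1, a scaffold protein that binds PTH1R, at 37.9 and 38.2 FPKM in the mutants against 30.4, 29.1 and 20.9 FPKM in the controls (limma adjusted p = 0.158), and Arrb1, a beta-arrestin, at a log2 difference of 0.43 (limma adjusted p = 0.222). Both had mutants above all controls. Ramp2, an accessory protein of peptide hormone receptors, was at 15.1 and 14.1 FPKM in the mutants against 11.7, 17.3 and 15.5 FPKM in the controls, with no separation of the groups.

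In the transduction chain, of 32 G protein, cyclase, kinase and effector genes tested, 0 passed with limma, 1 with voom on the recovered reads (Adcy1) and 2 were lower at an unadjusted p under 0.05, with log2 differences of -0.55 to 0.38. With voom 600 of all 12838 genes passed. Prkar2b, a regulatory subunit of protein kinase A, was at 7.28 and 7.38 FPKM in the mutants against 12.3, 9.71 and 11.2 FPKM in the controls (log2 difference -0.53, limma adjusted p = 0.0797). Adcy1, an adenylyl cyclase, had a log2 difference of -0.49 (limma adjusted p = 0.18, voom adjusted p = 0.0442). Both had mutants below all controls. Gnas, which encodes the Gs alpha subunit, was at 5.89 and 3.86 FPKM in the mutants against 5.75, 6.01 and 11.8 FPKM in the controls, and was highest in control replicate 3. Its exons share 988 bases with the antisense gene Nespas and 1469 with Gm20721, so its counts are uncertain where strand was not used.

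Genes that cAMP induces in many cells did not pass either. Of 15 tested, 0 passed with limma, 0 with voom and 1 was lower at an unadjusted p under 0.05. This was Gem, a small GTPase, at 6.15 and 4.34 FPKM in the mutants against 8.45, 7.20 and 9.03 FPKM in the controls (log2 difference -0.57, limma adjusted p = 0.117). Crem, a cAMP-responsive transcription factor that PTH signalling induces in bone, had a log2 difference of -0.24 (limma adjusted p = 0.433). The median of the 15 was -0.05. Areg, an EGF receptor ligand below the filter and named after its values were seen, had 58 mutant and 15 control reads.

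Of 14 growth plate genes tested, 1 passed with limma, Col2a1, the main collagen of cartilage, and was lower. With voom 3 passed, Col2a1, Cdkn1c and Mef2c, all lower. Of all genes, 1.37% passed as lower with limma, and 358 of 12838 with voom. Col2a1 was at 10.7 and 8.86 FPKM in the mutants against 35.0, 27.8 and 21.7 FPKM in the controls (log2 difference -1.42, SE 0.20, limma adjusted p = 0.0178). Both mutants lay well below all controls. Other cartilage collagens were lower too. Of 6 cartilage markers tested, 4 passed as lower, where 1.37% of all genes did. They were Col2a1 itself, Col9a1, Col9a3 and Col11a1. The others tested, Sox9 and Matn4, did not pass, at log2 differences of 0.23 and -0.41. The 8 cartilage markers in the table summed to 69.7 and 54.8 FPKM in the mutants against 100.4 to 130.5 FPKM in the controls, and their part in the result was not tested. Cdkn1c, a cell cycle inhibitor of maturing chondrocytes, had a log2 difference of -0.59 (limma adjusted p = 0.0679, voom adjusted p = 0.0375). Ihh, the hedgehog signal of the loop, had 5 mutant and 42 control reads and was below the filter, as was Runx2, a factor of chondrocyte maturation, with 38 and 167 reads. The hedgehog mediators Smo, Ptch1, Gli1, Gli2 and Gli3 were all among the 13 that did not pass.

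Among lipofibroblast genes, which mark the lipid-storing fibroblasts, Plin2, a lipid droplet coat protein gene, rose. It was at 26.0 and 22.7 FPKM in the mutants against 15.5, 14.7 and 15.3 FPKM in the controls (log2 difference 0.65, SE 0.11, limma adjusted p = 0.0325), with the control libraries close together. It was 1 of 6 tested, where 0.989% of all genes passed as higher. The call of Plin2 was lost under 9 of 17 alternatives, among them the fits without control replicate 2 or 3 (limma adjusted p = 0.0707 and 0.0692) and with the epithelial level as a covariate (0.0925). Its log2 difference in these 3 fits was 0.63, 0.65 and 0.67. Cebpa, a transcription factor of fat and lung epithelial cells, was at 13.0 and 9.89 FPKM in the mutants against 6.38, 6.14 and 7.12 FPKM in the controls (log2 difference 0.71, limma adjusted p = 0.0516). It passed under 4 alternatives, a filter of 5 FPKM (adjusted p = 0.0347), median ratio scaling (0.0245), quantile normalization (0.0288) and voom (0.0339). Pparg, a master factor of fat cell fate, was below the filter, with 43 reads over the 2 mutants and 91 over the 3 controls. Lpl and Lepr, a lipase and the leptin receptor, did not pass. Of the 6 tested, 4 had log2 differences above 0 and 2 below 0, from -0.43 to 0.71. At an unadjusted p under 0.05, 2 were higher and 1 was lower, where 18.9% of all genes reached it in either direction.

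Of 10 genes of bone, mammary and tooth responses, 1 passed with limma, Tnc, a matrix glycoprotein gene. With voom 2 passed, Tnc as lower and Lef1 as higher. Of all genes, 2.36% passed with limma, and 600 of 12838 with voom. Tnc was at 8.84 and 8.33 FPKM in the mutants against 18.7, 16.8 and 19.5 FPKM in the controls (log2 difference -1.01, SE 0.11, limma adjusted p = 0.00862). Both mutants lay below all controls, with little spread in either group. Lef1, a Wnt effector that PTHrP raises in mammary mesenchyme, was at 2.49 and 2.85 FPKM in the mutants against 0.731, 1.51 and 1.14 FPKM in the controls (log2 difference 0.80, limma adjusted p = 0.0861, voom adjusted p = 0.0205).

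Among 14 genes of Pthlh regulation and processing, Pcsk6, a convertase of the furin family that cuts secreted precursors, rose. It was at 19.7 and 17.1 FPKM in the mutants against 7.47, 7.33 and 7.29 FPKM in the controls, 2.50-fold higher (log2 difference 1.21, SE 0.11, limma adjusted p = 0.00644). The controls were nearly equal and both mutants lay far above them. Furin itself, at 12.6 and 11.6 FPKM against 10.3, 12.6 and 12.4 FPKM, did not pass (limma adjusted p = 0.894). Tgfbr1, a receptor of TGF-beta, a signal that raises Pthlh in many epithelial cells, had a log2 difference of -0.42 (limma adjusted p = 0.177). The ligands Tgfb1, Tgfb2 and Tgfb3 did not pass.

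**Figure D3:**
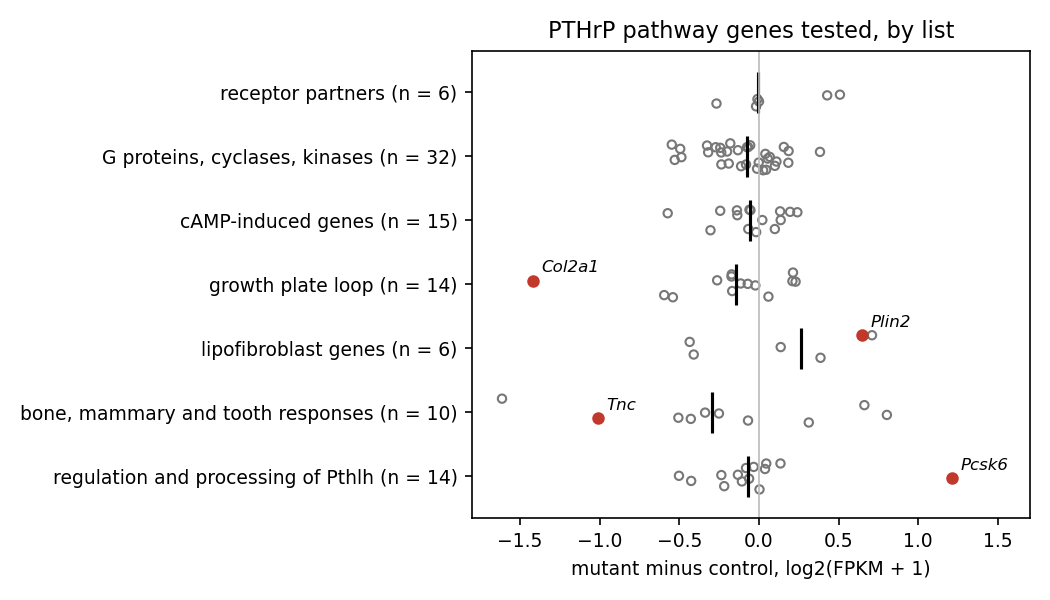
Log2 difference, mutant minus control, of each PTHrP pathway gene tested, by list, with n the genes tested, short black lines the list medians and filled red points the genes past an adjusted p of 0.05. The list medians lie between -0.29 and 0.26, and the open point farthest to the left is Wif1, at -1.61, which did not pass.

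The level of Pthlh was next compared with all other genes by pattern, as the root mean square difference of log2(FPKM + 1) over the 5 libraries after each gene was centred on its mean. Such genes share the libraries and thus the contrast on which Pthlh was chosen. The 5 most like Pthlh among 12333 genes were Sec14l5, Rgs14, Nkx2-9, Cubn and Ddit4l, at differences of 0.15 to 0.20. All but Ddit4l were below 1 FPKM in every control and so passed the filter through the mutants alone. On this scale, which shrinks changes of low genes, they look like Pthlh. Their mutant means were 9.40-fold to 23.2-fold above the control means, against 4.89-fold for Pthlh, and Nkx2-9 had 12 control reads. Rgs14 encodes a regulator of G protein signalling, Nkx2-9 a homeobox factor and Cubn a vitamin B12 and protein receptor. Sec14l5 was at 5.95 and 3.88 FPKM in the mutants against 0.573, 0.761 and 0.235 FPKM in the controls, with control replicate 3 lowest as for Pthlh. Ddit4l, an inhibitor of growth signalling through mTOR, was closer to the absolute level of Pthlh, at 7.44 and 8.15 FPKM against 2.00, 1.22 and 1.24 FPKM.

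The 5 genes most like Pth1r were Pyroxd2, Piezo1, Creb3l1, Myc and Dach1, at differences of 0.03 to 0.07. Piezo1 encodes a mechanosensitive ion channel, and Creb3l1, Myc and Dach1 encode transcription factors. Creb3l1 was at 42.4 and 39.0 FPKM in the mutants against 22.4, 37.5 and 41.3 FPKM in the controls. All 5 shared the low value in control replicate 1, the library with the highest sum of epithelial markers.

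**Figure D4:**
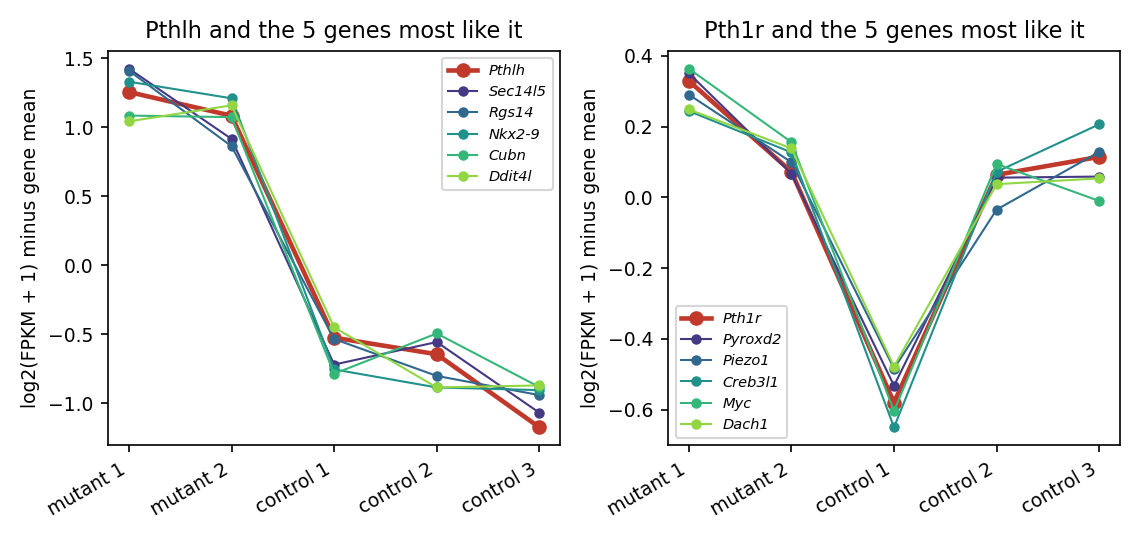
Log2(FPKM + 1) minus the gene's mean over the 5 libraries for Pthlh (left) and Pth1r (right), both in red, with the 5 genes of the most like pattern. The lines only join libraries and mark no order; the left genes separate mutants from controls, and the right genes share the low value of control replicate 1.

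The neighbours of both genes on their chromosomes did not pass. Of the 5 nearest protein-coding genes on each side of Pthlh, 8 were tested and 0 passed with limma or voom, with 1, Tmtc1, lower at an unadjusted p under 0.05. The nearest on each side were Klhl42, 139323 bases away, at a log2 difference of 0.11 (limma adjusted p = 0.763), and Ccdc91, 211645 bases away, at 0.30 (limma adjusted p = 0.395). Around Pth1r 4 were tested, with 0 past the threshold and 0 at an unadjusted p under 0.05. Ccdc12, 10479 bases away, was at 10.7 and 11.1 FPKM in the mutants against 11.9, 10.7 and 10.6 FPKM in the controls. The nearest gene on the other side, the overlapping Myl3, was below the filter.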

How the data were processed

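Bulk RNA-seq of 2 mutant and 3 control samples was used, grouped and numbered by their titles. The authors deposited 1 table of FPKM values, the unit being per the name of the deposited table, for 19699 entries. The submitters' processing notes name GRCm38 (mm10). For the aligner, counter, annotation, filters and strand, nothing is given in the sources used here. Whole reads were recovered for 100% of entries at a relative tolerance of 1e-12, with gene lengths equal to GENCODE M21 exon lengths for 73.9% of 18882 genes, both members included. RNA libraries were made with a SMARTER kit, per the labels' protocols.

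The test was limma 3.58.1 in R 4.3.3 (lmFit, then eBayes with its trend option; two-sided). It ran on log2(FPKM + 1) of the 12838 genes that reached 1 FPKM in 2 or more libraries, with Benjamini-Hochberg adjustment over all of them, a threshold of 0.05 and no covariate. It was tested on simulated reads. The 2 members and all lists were chosen with earlier results of these data known. Named pathway genes are those past the threshold, the 2 of each list with the smallest p, and 10 given whatever they show. Further genes named after their values were seen are Areg, Furin, the hedgehog and TGF-beta genes, Lpl, Lepr and marker genes. Lep and Pth were not analysed here. Promoter sequences are from RefSeq (GRCm38.p6), with 2 of 2 members matched. Alternatives varied the pseudocount, filter, scaling, libraries, covariates and test (voom on the recovered reads).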

Additional observations from a re-analysis of the deposited data

How the results depend on the processing

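The log2 difference of Pthlh stayed above 0 in all 15 alternatives run on it. It was 2.29 with a pseudocount of 0.1, 1.22 with 5, 1.60 with TPM, 1.45 with the Y-linked share as a covariate and 2.34 with voom, and 1.75 to 2.08 when 1 library was left out. That of Pth1r was -0.22 with TPM, -0.023 with the epithelial covariate and 0.67 with the Y-linked covariate, and 0.11 to 0.46 with 1 library left out. Per marker level, Pthlh differed by 3.05 on the log2 scale. It differed by 3.28 over Epcam, 2.81 over Cdh1, 2.27 over Nkx2-1 and 0.90 over the tip markers (added after seeing the data). Pth1r differed by -0.08, and by 0.66, 0.27 and -0.70 over Pdgfra, Pdgfrb and Tbx4.

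The 4 pathway calls became 2 of 121 with no filter, 0 with TPM, 1 with the Y-linked covariate and 9 with voom, and 0 to 4 with 1 library left out (0 without either mutant). All calls numbered 69 with no filter, 67 with TPM, 55 with the Y-linked covariate, 119 with the epithelial covariate and 600 with voom, and 4 to 284 with 1 library left out (4 without mutant replicate 1 and 11 without mutant replicate 2). No neighbour of either gene was called in any of the 17 alternatives. TPM without the single entry Gm23935 gave 5 pathway calls, the 4 and Cdkn1c, 389 calls in all, and log2 differences of 2.14 for Pthlh and 0.28 for Pth1r, so the shifts with TPM rest on that entry. Leaving out a mutant leaves fewer samples, and no filter tests more genes. The cause of the other shifts was not tested.

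Among genes that did not pass, the sign turned for Ramp2 with median ratio scaling (0.071), quantile normalization (0.059), the Y-linked covariate (0.14), the replicate block (0.027) and with 1 library left out (-0.16 to 0.10). It turned for Ccdc12 with the same scalings (0.062 and 0.059), the epithelial covariate (0.062) and with 1 library left out (-0.046 to 0.032). With TPM it turned for Slc9a3r1 (-0.049), Arrb1 (-0.089), Klhl42 (-0.37) and Ccdc91 (-0.23), all above 0 in TPM without Gm23935 (0.45, 0.39, 0.067 and 0.25), and with the Y-linked covariate for Gnas (0.067) and Klhl42 (-0.15). The replicate block, with numbers 1 and 2 in both groups, gave 4 pathway calls and 259 in all, and Plin2 lost its call (limma adjusted p = 0.0964) while Wif1 gained one. Deviations from the group means correlated across 12838 genes at -0.07 and 0.02 for same-numbered samples. With 2 mutants these deviations mirror each other, as mutant 2 with control 1 gave 0.07. The check therefore cannot decide whether the numbers pair the samples. Pthlh in the controls rests on 49 to 96 reads a library, which limits its fold.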
